A study of Homo sapiens with 12 samples.

Results

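The proteasome genes described here are 46 genes selected by symbol from the 61466 rows of the deposited expression table, by a rule that reads symbols and no values. The list of symbols was chosen with earlier results of these data known. Counts of these genes set against all genes tested are therefore descriptions. They comprise the 7 alpha and 7 constitutive beta subunits of the 20S core, the 3 immunoproteasome catalytic subunits (PSMB8, PSMB9 and PSMB10), PA28 alpha and beta (PSME1 and PSME2), 17 subunits and 3 assembly chaperones of the 19S cap, 4 assembly factors of the 20S core including POMP, and 3 further activators or inhibitors. Each symbol had 1 row in the table. Of the 46 genes, 45 passed the filter on low values (at least 1 FPKM in at least 3 of the 12 libraries) and were tested. The alpha subunit gene PSMA2 did not, with 0.66 to 1.11 FPKM over the 12 libraries. FPKM are fragments per kilobase of gene, scaled to the fragments of the library, so they are shares of a library, per length.

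The 26S proteasome degrades proteins tagged with ubiquitin. A barrel of stacked alpha and beta rings, the 20S core, holds the catalytic sites, and the 19S cap recognises, unfolds and feeds in the substrate. Immune cells, B lymphocytes among them, also use PSMB8, PSMB9 and PSMB10 in place of PSMB5, PSMB6 and PSMB7, and interferon gamma is the classical inducer of these subunits and of PA28, which opens the core. The peptides made by such cores are loaded on MHC class I molecules after transport by TAP1 and TAP2.

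The study gave Farage and SU-DHL-8 cells morusinol or vehicle and sequenced RNA after 12 h. Both are established human lines of diffuse large B cell lymphoma, labelled as from lymph node, and morusinol is a prenylated flavonoid from mulberry. There were 3 libraries in each of the 4 groups, which were Farage with morusinol, Farage with vehicle (control), SU-DHL-8 with morusinol and SU-DHL-8 with vehicle (control). No genetic change is given for any group: the genotype label reads WT for the controls and repeats the treatment for the morusinol groups. No source used here gives the dose or says whether replicates were separate cultures, so p-values measure the spread between these libraries, which may be technical.

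Depth, estimated from the steps of the low FPKM values, was 9.37 to 12.7 M fragments in Farage morusinol, 16.6 to 18.96 M in Farage control, 6.05 to 14.97 M in SU-DHL-8 morusinol and 14.2 to 15.2 M in SU-DHL-8 control libraries. In Farage, every morusinol library was shallower than every control library, so depth and treatment cannot be told apart there. Libraries of a group correlated at 0.964 to 0.980, those of the other treatment of the same line at 0.922 to 0.937, and those of the other line at 0.726 to 0.796 (Pearson's r across tested genes, which are not independent replicates). All 6 B lymphocyte markers were at 1 FPKM or more in every group. Their summed level was 613 to 659.9 FPKM in Farage morusinol and 966 to 1021 FPKM in Farage control, and it was 230.1 to 238 FPKM in SU-DHL-8 morusinol and 354 to 368 FPKM in SU-DHL-8 control libraries. Summed markers of T and NK cells (8 genes) were at most 6.82 FPKM, of myeloid cells (8 genes) at most 1.80 FPKM with S100A8 and S100A9 at 0 throughout, and of fibroblasts, endothelium and epithelium (8 genes) at most 2.20 FPKM. In Farage the mean of all 6 B lymphocyte markers was lower with morusinol. In SU-DHL-8 the mean was lower for 4 of 6, mainly CD79A (43.0 FPKM with morusinol against 175 FPKM in controls), and higher for CD79B (91.6 against 71.7 FPKM) and PAX5 (45.1 against 39.8 FPKM). The part that depth or these marker changes had in the results was not tested.

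Most of the proteasome genes were lower with morusinol in both lines, and none was called higher. PSMD7 alone was called higher in Farage when Farage control replicate 3 was left out or when libraries were scaled to protein-coding genes. Of the 45 genes tested, 31 fell in Farage and 38 fell in SU-DHL-8 (limma, Benjamini-Hochberg adjusted p under 0.05 over all 17574 genes tested). Among all genes tested the same call was made for 21.2% in Farage and 21.6% in SU-DHL-8, and higher calls for 21.9% and 25.1%, which makes 43.1% and 46.8% in either direction. Without SU-DHL-8 morusinol replicate 2, the shallowest library, 37 fell in SU-DHL-8. The median change of the 45 genes was -0.34 in Farage and -0.50 in SU-DHL-8, against -0.03 and 0.02 over all genes tested (log2 of FPKM + 1, which understates the change of genes with low values). In both lines 30 of the 45 genes fell, against 11.1% of all genes tested, which is 30 of the 31 in Farage and 30 of the 38 in SU-DHL-8. The fall was moderate in size. On the scale of log2 of FPKM + 1, only PSMB8 fell by 1 unit or more in Farage. Only PSMB2, PSME2 and PSMD1 did in SU-DHL-8 (3.25% of all genes tested fell that far in Farage and 3.23% in SU-DHL-8). By the means of FPKM itself, PSMB10 was at 47.3% of the control mean in Farage and PSMA6 at 49.9% in SU-DHL-8. The fitted change was negative for 40 of 45 genes in Farage and for all 45 in SU-DHL-8. The 3 morusinol libraries all lay below the 3 controls for 32 genes in Farage and 39 in SU-DHL-8, which held for 25.3% and 24.9% of all genes tested. In libraries of bulk RNA, less RNA of these genes in every cell and fewer cells with high levels cannot be told apart.

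**Figure D1:**
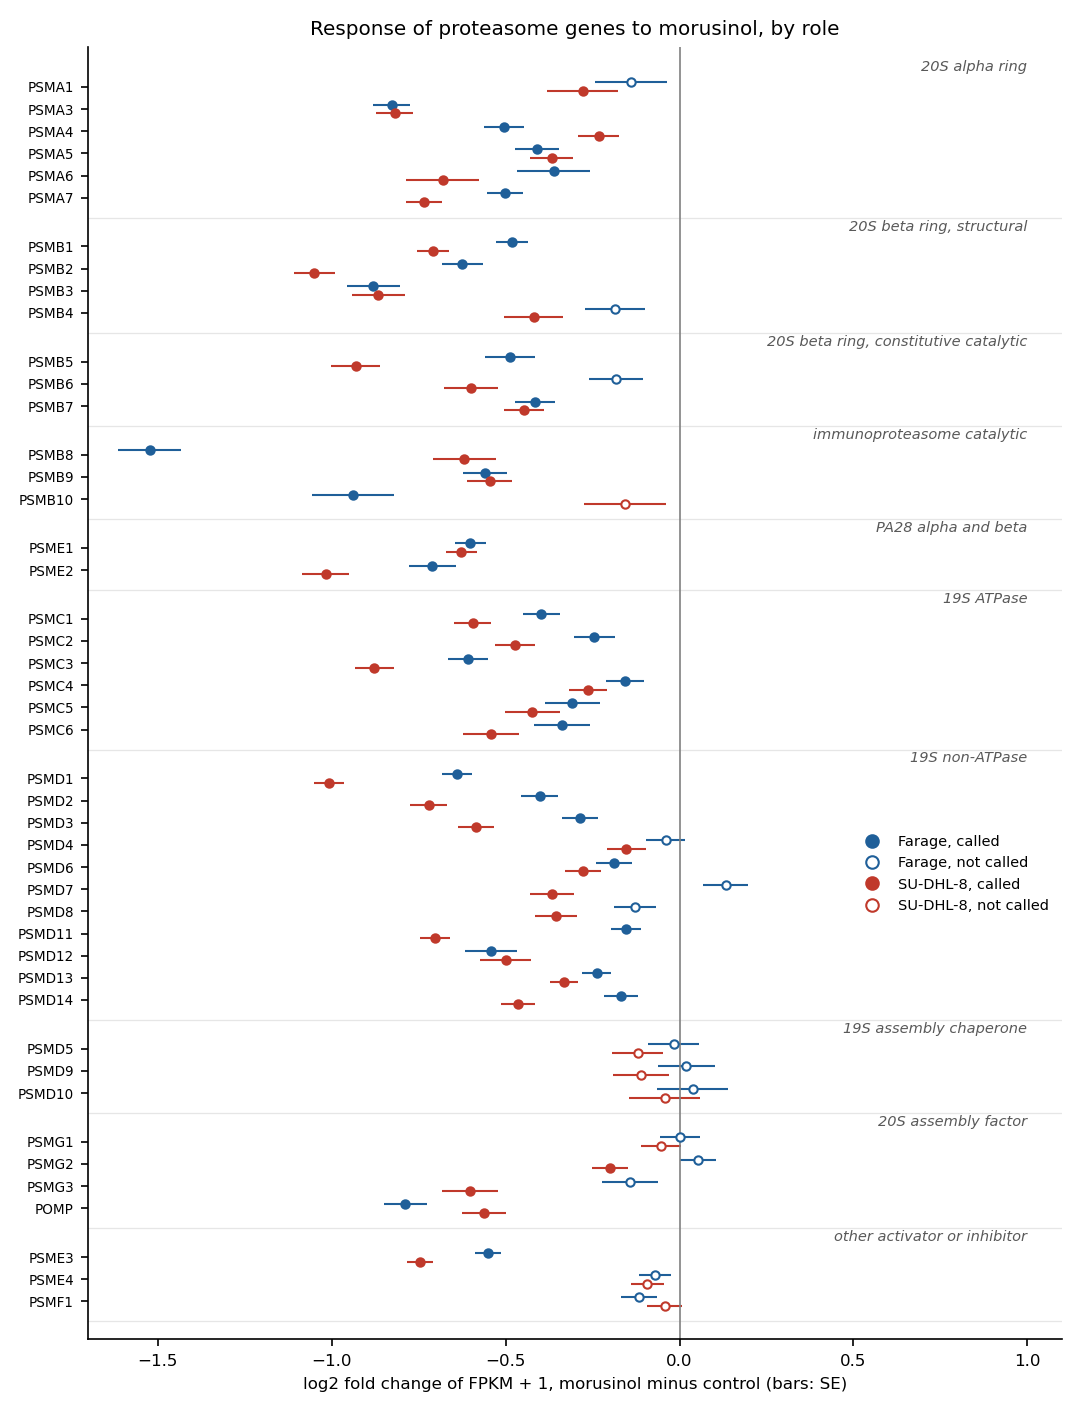
Change of 45 proteasome genes with morusinol, grouped by role; the x axis is the log2 fold change of FPKM + 1 (morusinol minus control), bars are standard errors from limma with 3 libraries a group, Farage is blue and SU-DHL-8 red. Filled points passed an adjusted p of 0.05; 31 genes fell in Farage and 38 in SU-DHL-8, PSMB8 in Farage lies farthest left at -1.52, and the 3 assembly chaperones of the 19S cap lie near 0 in both lines.

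The constitutive 20S core was lower in both lines. Of its 13 tested genes, 10 fell in Farage (median -0.48) and all 13 fell in SU-DHL-8 (median -0.68). PSMB5 carries the chymotrypsin-like site, the main target of the proteasome inhibitor bortezomib. It was at 32.3, 33.3 and 28.3 FPKM in Farage morusinol libraries, against 44.5, 40.7 and 47.8 FPKM in Farage controls. In SU-DHL-8 it was at 31.1, 30.7 and 32.2 FPKM with morusinol, against 61.2, 63.6 and 57.2 FPKM in controls. The groups did not overlap in either line, and the 2 morusinol groups were at about the same level although the controls were not. The log2 change was -0.49 ± 0.0714 in Farage (SE, adjusted p = 2.8e-04) and -0.93 ± 0.0714 in SU-DHL-8 (adjusted p = 1.8e-06).

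PSMB6 carries the caspase-like site. It was at 45.4, 37.3 and 37.9 FPKM in Farage morusinol libraries, against 45.97, 43.4 and 47.5 FPKM in Farage controls, and the groups overlapped. The log2 change of -0.18 ± 0.0781 did not pass the test (adjusted p = 0.086). Without Farage morusinol replicate 1, the highest of its group, it did (-0.27, adjusted p = 0.0083). In SU-DHL-8, PSMB6 was at 52.1, 47.5 and 46.5 FPKM with morusinol, against 76.9, 69.4 and 76.5 FPKM in controls, without overlap, a log2 change of -0.60 ± 0.0781 (adjusted p = 9.5e-05). PSMB7 carries the trypsin-like site and fell by a similar amount in both lines. It was at 63.4, 61.0 and 56.6 FPKM in Farage morusinol libraries against 80.4, 76.7 and 85.3 FPKM in Farage controls, and at 73.4, 68.4 and 65.5 FPKM in SU-DHL-8 morusinol libraries against 96.8, 95.9 and 91.0 FPKM in SU-DHL-8 controls. Its log2 changes were -0.42 ± 0.058 in Farage (adjusted p = 2.0e-04) and -0.45 ± 0.058 in SU-DHL-8 (adjusted p = 9.0e-05).

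The other beta ring genes have no catalytic site, and PSMB2 and PSMB3 were among the genes that fell most. PSMB2 was at 31.0, 30.0 and 28.7 FPKM in Farage morusinol libraries, against 48.2, 43.5 and 48.3 FPKM in controls, and at 27.4, 24.1 and 24.6 FPKM in SU-DHL-8 morusinol libraries, against 54.3, 55.0 and 51.4 FPKM in controls. Its log2 change was -0.62 ± 0.0589 in Farage (adjusted p = 1.2e-05) and -1.05 ± 0.0589 in SU-DHL-8 (adjusted p = 1.8e-07), the lowest of the 45 there. PSMB3 was at 93.1, 95.9 and 80.2 FPKM in Farage morusinol libraries, against 160.4, 158 and 179 FPKM in controls, and at 87.9, 83.1 and 85.0 FPKM in SU-DHL-8 morusinol libraries, against 161, 164 and 145 FPKM in controls. The 2 lines fell alike in value for PSMB3, at -0.88 in Farage and -0.87 in SU-DHL-8, with adjusted p of 6.0e-06 and 4.9e-06. PSMB1 fell too (-0.48 in Farage, -0.71 in SU-DHL-8). PSMB4 averaged 96.1 ± 8.26 FPKM in Farage morusinol and 109 ± 10.3 FPKM in Farage control libraries (SD, n = 3 each), which did not pass the test (-0.18, adjusted p = 0.11), and it fell in SU-DHL-8 (-0.42, adjusted p = 0.0021).

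The alpha ring forms the gate of the core. PSMA3 was at 39.4, 39.3 and 42.1 FPKM in Farage morusinol libraries, against 67.8, 74.4 and 74.6 FPKM in controls. It was at 31.9, 31.3 and 34.2 FPKM in SU-DHL-8 morusinol libraries, against 58.7, 60.4 and 55.0 FPKM in controls. Morusinol left PSMA3 at 55.7% of the control mean in Farage and 55.9% in SU-DHL-8 (log2 change -0.83 and -0.82, adjusted p = 8.2e-07 and 5.6e-07). PSMA7, the alpha gene with the highest level, averaged 103 ± 8.09 FPKM in Farage morusinol and 146 ± 5.66 FPKM in Farage control libraries, and 177 ± 1.17 FPKM in SU-DHL-8 morusinol and 294 ± 0.494 FPKM in SU-DHL-8 control libraries. It fell in both lines (-0.50 and -0.73), as did PSMA4 (-0.51 and -0.23), PSMA5 (-0.41 and -0.37) and PSMA6 (-0.36 and -0.68). PSMA6 was listed at a low level, 1.07 ± 0.0969 FPKM in Farage morusinol and 1.66 ± 0.119 FPKM in Farage control libraries, while its processed copy PSMA6P1 averaged 5.50 FPKM over the 12 libraries, so its reads may be split and its values are uncertain. The Farage call of PSMA6 was lost without Farage morusinol replicate 1 or Farage control replicate 3 (adjusted p = 0.053 and 0.058). PSMA1 fell in SU-DHL-8 by a bare margin (-0.28 ± 0.103, adjusted p = 0.047), with overlapping groups, and lost the call without any 1 of 10 libraries, that is all except SU-DHL-8 morusinol replicate 2 and SU-DHL-8 control replicate 3 (adjusted p 0.058 to 0.17). In Farage its change was -0.14 (adjusted p = 0.31). PSMA1 shares 24.7% of its exonic bases with a gene of the same strand, AC018523.2.

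**Figure D2:**
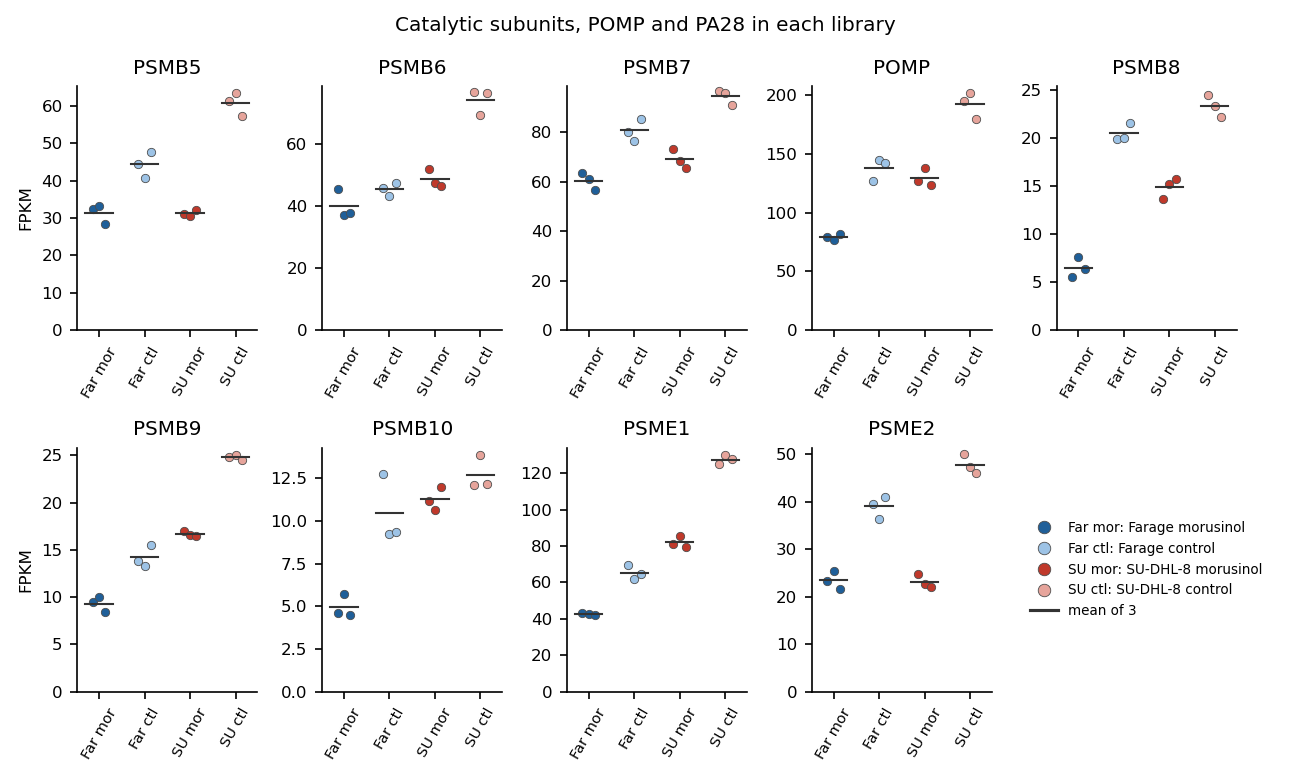
FPKM of the 3 constitutive catalytic subunits, POMP, the 3 immunoproteasome catalytic subunits and PA28 alpha (PSME1) and beta (PSME2) in each library; points are libraries, bars the mean of 3, and Far mor, Far ctl, SU mor and SU ctl stand for Farage morusinol, Farage control, SU-DHL-8 morusinol and SU-DHL-8 control. PSMB8 in the Farage morusinol libraries lies between 5.53 and 7.59 FPKM, below every library of the other 3 groups.

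The immunoproteasome genes fell as well, and PSMB8 and PSMB10 fell further in Farage than in SU-DHL-8. All 5 of the group of PSMB8, PSMB9, PSMB10, PSME1 and PSME2 fell in Farage (median -0.71), and 4 fell in SU-DHL-8 (median -0.62). PSMB8 replaces PSMB5 in the immunoproteasome. It was at 5.53, 7.59 and 6.37 FPKM in Farage morusinol libraries, against 19.9, 19.9 and 21.5 FPKM in Farage controls, which is 31.8% of the control mean. In SU-DHL-8 it was at 13.7, 15.1 and 15.7 FPKM with morusinol, against 24.4, 23.3 and 22.1 FPKM in controls, or 63.7% of the control mean. The control levels of the lines lay close together and the morusinol levels did not. The log2 change was -1.52 ± 0.0909 in Farage (adjusted p = 4.6e-07), the lowest of the 45 there, and -0.62 ± 0.0909 in SU-DHL-8 (adjusted p = 2.2e-04). The difference between these responses, Farage minus SU-DHL-8, was -0.91 ± 0.128 (adjusted p = 3.9e-04).

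PSMB10 replaces PSMB7. It was at 4.62, 5.71 and 4.48 FPKM in Farage morusinol libraries, against 12.7, 9.25 and 9.35 FPKM in Farage controls. In SU-DHL-8 it was at 11.2, 10.7 and 12.0 FPKM with morusinol, against 12.1, 13.8 and 12.2 FPKM in controls. In Farage the groups were far apart even though control replicate 1 lay above the other 2, and in SU-DHL-8 they were separated by little. PSMB10 fell in Farage (-0.94 ± 0.118, adjusted p = 9.5e-05) and its change in SU-DHL-8 did not pass the test (-0.16 ± 0.118, adjusted p = 0.32). The responses differed by -0.78 ± 0.167 (Farage minus SU-DHL-8, adjusted p = 0.0047). PSMB9, which replaces PSMB6, fell alike in value in the 2 lines. It was at 9.50, 10.0 and 8.42 FPKM in Farage morusinol libraries against 13.8, 13.3 and 15.5 FPKM in controls, and at 17.0, 16.6 and 16.5 FPKM in SU-DHL-8 morusinol libraries against 24.9, 25.0 and 24.6 FPKM in controls. Its log2 changes were -0.56 (adjusted p = 5.1e-05) and -0.55 (adjusted p = 4.6e-05), and their difference was -0.01 ± 0.0912 (adjusted p = 0.93).

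The ratio of each immunoproteasome subunit to the subunit it replaces, taken within a library, does not depend on how libraries are scaled. The ratio of PSMB8 to PSMB5 was 0.208 ± 0.0320 in Farage morusinol and 0.462 ± 0.0239 in Farage control libraries (SD, n = 3 each). In SU-DHL-8 it was 0.474 ± 0.0298 with morusinol and 0.384 ± 0.0164 in controls. The ratio thus lay below its controls in all Farage morusinol libraries and above its controls in all SU-DHL-8 morusinol libraries. The ratio of PSMB10 to PSMB7 was 0.0819 ± 0.0106 in Farage morusinol and 0.130 ± 0.0256 in Farage control libraries, and 0.164 ± 0.0169 in SU-DHL-8 morusinol and 0.134 ± 0.00955 in SU-DHL-8 control libraries. The ratio of PSMB9 to PSMB6 was 0.233 ± 0.0313 in Farage morusinol and 0.311 ± 0.0143 in Farage control libraries, and 0.343 ± 0.0149 in SU-DHL-8 morusinol and 0.335 ± 0.0220 in SU-DHL-8 control libraries, where the groups overlapped. The ratios are descriptions and carry no test.

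**Figure D3:**
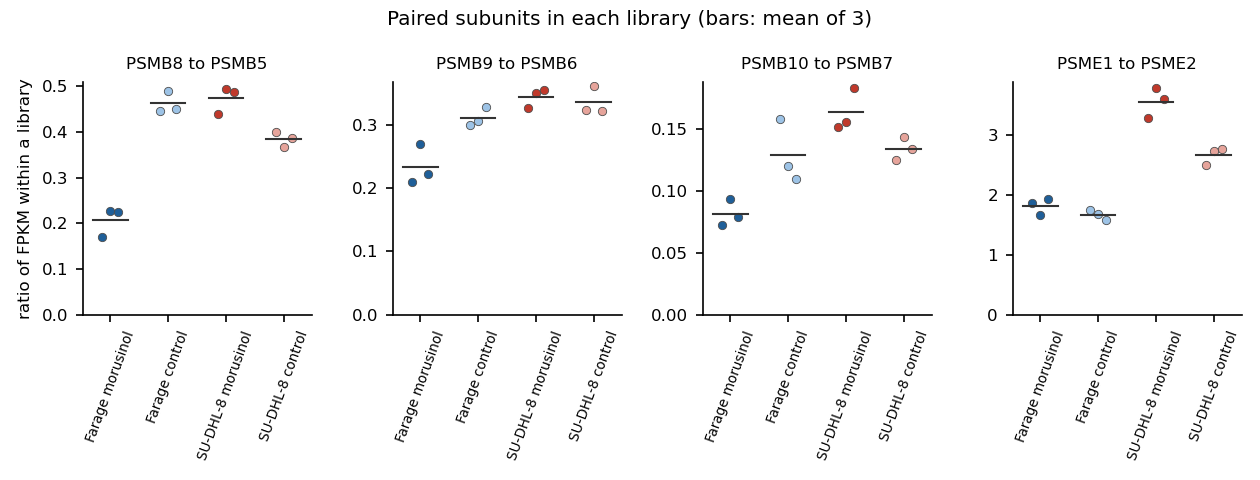
Ratio of FPKM within each library for PSMB8 to PSMB5, PSMB9 to PSMB6, PSMB10 to PSMB7 and PSME1 to PSME2; points are libraries, bars the mean of 3, and the y axes start at 0. In Farage the morusinol libraries lie below the controls for the first 3 ratios (0.208 against 0.462 on average for PSMB8 to PSMB5), and in SU-DHL-8 the ratio of PSME1 to PSME2 is higher with morusinol (3.56 against 2.67).

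PA28 alpha and beta are encoded by PSME1 and PSME2 and form 1 ring together. PSME1 was at 43.3, 42.6 and 42.1 FPKM in Farage morusinol libraries against 69.6, 61.6 and 64.7 FPKM in controls, and at 81.3, 85.5 and 79.6 FPKM in SU-DHL-8 morusinol libraries against 125, 129.7 and 128 FPKM in controls. The fall of PSME1 was alike in value, -0.60 ± 0.0451 in Farage (adjusted p = 2.2e-06) and -0.63 ± 0.0451 in SU-DHL-8 (adjusted p = 1.1e-06). PSME2 was at 23.2, 25.4 and 21.7 FPKM in Farage morusinol libraries against 39.5, 36.4 and 41.0 FPKM in controls, and at 24.7, 22.5 and 22.0 FPKM in SU-DHL-8 morusinol libraries against 49.98, 47.3 and 45.9 FPKM in controls. It fell by 0.71 ± 0.0675 on the log2 scale in Farage (adjusted p = 1.2e-05) and by 1.02 ± 0.0675 in SU-DHL-8 (adjusted p = 6.2e-07). The ratio of PSME1 to PSME2 was 1.83 ± 0.138 in Farage morusinol and 1.68 ± 0.0905 in Farage control libraries, which overlapped. It was 3.56 ± 0.255 in SU-DHL-8 morusinol and 2.67 ± 0.153 in SU-DHL-8 control libraries, which did not.

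PSMB8 lies at chr6:32840717-32844703 on the minus strand and PSMB9 at chr6:32844136-32859585 on the plus strand (GRCh38, GENCODE release 29), and their exons overlap in part. PSMB8 shares 20.6% of its exonic bases with genes of the opposite strand, which are PSMB9 and PSMB8-AS1 (mean 2.85 FPKM). No source used here says whether counting used the strand, so reads of this overlap may be assigned to either gene. PSMB10 (chr16:67934502-67937087, minus strand) shares 34.8% of its exonic bases with AC040162.1, a gene on the same strand with a mean of 0.609 FPKM. The start sites of PSMB9 and of TAP1, the peptide transporter gene, lie 488 bases apart on opposite strands in RefSeq. TAP1 was called lower in neither line. It averaged 24.4 ± 2.63 FPKM in Farage morusinol and 22.6 ± 1.54 FPKM in Farage control libraries, which overlapped (0.10, adjusted p = 0.32), and it rose in SU-DHL-8, with 20.4 ± 1.05 FPKM against 15.7 ± 0.413 FPKM (0.36, adjusted p = 0.0025). Without Farage morusinol replicate 3, TAP1 was called higher in Farage too (0.19, adjusted p = 0.029).

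Promoter windows are shown for 3 interferon-responsive members whose changes are given above, PSMB9, PSMB10 and PSME2, and for PSMB3, a constitutive subunit that fell in both lines. Each is the 250 bases upstream of the start site from RefSeq (GRCh38.p14), read along the gene's strand, 5′ to 3′. Capitals mark letters found by the search on either strand: TGACNNNGC (core of the antioxidant response element, which NFE2L1 and NFE2L2 bind with small MAF proteins), CCAAT (NF-Y box), the interferon regulatory factor element (GAAA, any 2 bases, GAAA) and TTCNNNGAA (STAT element). The windows are chr6:32853942-32854191 (plus strand) for PSMB9, chr16:67936851-67937100 (minus) for PSMB10, chr14:24146611-24146860 (minus) for PSME2 and chr17:38752491-38752740 (plus) for PSMB3.
PSMB9: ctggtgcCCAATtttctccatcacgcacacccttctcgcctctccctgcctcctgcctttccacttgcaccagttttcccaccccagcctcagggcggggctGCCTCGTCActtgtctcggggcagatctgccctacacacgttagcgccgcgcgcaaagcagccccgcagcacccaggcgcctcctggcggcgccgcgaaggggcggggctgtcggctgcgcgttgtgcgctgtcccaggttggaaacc
PSMB10: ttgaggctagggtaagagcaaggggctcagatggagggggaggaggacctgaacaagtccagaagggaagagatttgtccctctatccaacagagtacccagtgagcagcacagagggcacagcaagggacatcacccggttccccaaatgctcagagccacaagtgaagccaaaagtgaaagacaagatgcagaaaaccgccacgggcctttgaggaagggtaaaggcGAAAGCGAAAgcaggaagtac
PSME2: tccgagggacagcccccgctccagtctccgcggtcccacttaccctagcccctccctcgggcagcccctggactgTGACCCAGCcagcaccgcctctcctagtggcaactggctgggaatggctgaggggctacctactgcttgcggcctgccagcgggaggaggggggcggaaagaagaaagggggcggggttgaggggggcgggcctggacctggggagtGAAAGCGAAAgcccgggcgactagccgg
PSMB3: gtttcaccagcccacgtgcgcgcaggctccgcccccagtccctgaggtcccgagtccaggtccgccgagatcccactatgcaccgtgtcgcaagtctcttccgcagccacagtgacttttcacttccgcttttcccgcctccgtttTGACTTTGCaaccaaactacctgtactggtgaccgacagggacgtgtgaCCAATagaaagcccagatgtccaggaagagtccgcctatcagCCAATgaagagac
PSMB10 and PSME2 both hold GAAAGCGAAA close to the start site, in PSMB10 from base -21 to -12 and in PSME2 from base -28 to -19, where base -1 is the last before the start site. PSMB3 holds TGACTTTGC and CCAAT in 2 places. PSMB9 holds CCAAT and, as GCCTCGTCA, the antioxidant core on the other strand. A match is a description of letters and not of binding.

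Over all 40 members with a window (49 windows, since some genes have several start sites), 13 windows (26.5%) held the antioxidant core, against 10.9% of all 35116 windows of the same length. The NF-Y box was in 36.7% of the members' windows against 32.0% of all windows, the interferon regulatory factor element in 8.16% against 3.02%, and the STAT element in 12.2% against 6.57%. The interferon regulatory factor element was found in PSMB10 and PSME2 and in the constitutive core genes PSMA4 and PSMB4. It was not found in PSMB8, PSMB9 or PSME1. The antioxidant core was found in PSMA4, PSMB3, PSMB9, PSMC5, PSMD3, PSMD5, PSMD9, PSMD12, PSME1, PSME2, PSME4, PSMG1 and PSMG2. These include genes that fell in both lines and PSMD5, PSMD9, PSME4 and PSMG1, which were called in neither. PSMA7, PSMB1, PSMB6, PSMB7, PSMD4 and PSMG3 had no entry.

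The 19S cap fell in both lines, by less than the core in its median. Of its 17 subunit genes, 14 fell in Farage (median -0.24) and all 17 fell in SU-DHL-8 (median -0.47). The 6 ATPases, which unfold substrates and thread them into the core, fell in both lines without exception. PSMC3 had the largest fall among them. It was at 39.0, 39.3 and 35.0 FPKM in Farage morusinol libraries against 57.4, 55.2 and 61.7 FPKM in controls, and at 35.2, 36.8 and 33.1 FPKM in SU-DHL-8 morusinol libraries against 65.7, 65.4 and 64.3 FPKM in controls (log2 change -0.61 and -0.88, adjusted p = 1.1e-05 and 5.2e-07). PSMC4 had the smallest, -0.16 in Farage (adjusted p = 0.042) and -0.26 in SU-DHL-8 (adjusted p = 0.0026). Its Farage call was lost without any 1 of 8 libraries, namely SU-DHL-8 morusinol replicate 3, all 3 SU-DHL-8 controls, Farage morusinol replicates 1 and 3 and Farage control replicates 1 and 3 (adjusted p 0.051 to 0.14). PSMC1, PSMC2, PSMC5 and PSMC6 changed by -0.40, -0.24, -0.31 and -0.34 in Farage and by -0.59, -0.47, -0.42 and -0.54 in SU-DHL-8. PSMC1 shares 75.8% of its exonic bases with NRDE2 of the opposite strand (mean 1.73 FPKM), so its values are uncertain if counting ignored strand. The same limit holds for PSMC5, which shares 19.5% of its exonic bases with FTSJ3 of the opposite strand (mean 14.1 FPKM).

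PSMD1 and PSMD2 are the large scaffold subunits of the cap's base. PSMD1 was at 10.4, 10.4 and 10.9 FPKM in Farage morusinol libraries against 17.3, 16.5 and 17.2 FPKM in controls, and at 7.12, 7.24 and 6.96 FPKM in SU-DHL-8 morusinol libraries against 15.8, 15.8 and 14.4 FPKM in controls. Groups were far apart in both lines, at 62.1% of the control mean in Farage and 46.4% in SU-DHL-8 (log2 change -0.64 and -1.01, adjusted p = 1.0e-06 and 2.5e-08). PSMD2 fell by 0.40 in Farage and 0.72 in SU-DHL-8 on the log2 scale. Of the lid, PSMD14 is the deubiquitinase that removes ubiquitin from the substrate and PSMD7 is its partner. PSMD14 averaged 17.8 ± 0.0899 FPKM in Farage morusinol and 20.1 ± 0.72 FPKM in Farage control libraries, and 17.2 ± 1.24 FPKM in SU-DHL-8 morusinol and 24.1 ± 0.678 FPKM in SU-DHL-8 control libraries. It fell in both lines (-0.17 and -0.46), but the Farage call was lost without Farage control replicate 2 or 3 (adjusted p = 0.059 and 0.057).

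PSMD7 was called lower in SU-DHL-8 and not in Farage. It was at 20.6, 22.8 and 22.4 FPKM in Farage morusinol libraries against 19.3, 18.7 and 22.0 FPKM in controls, which overlapped, and at 20.4, 21.1 and 22.1 FPKM in SU-DHL-8 morusinol libraries against 27.8, 28.8 and 26.3 FPKM in controls, which did not. The log2 change was 0.13 ± 0.0645 in Farage (adjusted p = 0.13) and -0.37 ± 0.0645 in SU-DHL-8 (adjusted p = 7.9e-04). Without Farage control replicate 3, the highest of its group, PSMD7 was called higher in Farage (0.20, adjusted p = 0.022). The gene shares 30.7% of its exonic bases with a transcript of the opposite strand (AC009120.2, mean 1.36 FPKM). Of the other lid genes, PSMD3, PSMD12 and PSMD13 fell in both lines (-0.29, -0.54 and -0.24 in Farage, -0.59, -0.50 and -0.33 in SU-DHL-8). PSMD6 and PSMD11 fell in both too, with -0.19 and -0.15 in Farage and -0.28 and -0.70 in SU-DHL-8. The Farage call of PSMD6 was lost without Farage control replicate 3 (adjusted p = 0.052), and that of PSMD11 without Farage morusinol replicate 2 or Farage control replicate 1 (adjusted p = 0.056 and 0.051). Scaled to protein-coding genes, PSMC4, PSMD6, PSMD11 and PSMD14 were not called in Farage (adjusted p = 0.19, 0.056, 0.16 and 0.13). Rescaled to TPM, PSMC4 and PSMD11 were not (0.094 and 0.17), nor was PSMC4 with scaling by the median of ratios (0.095).

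PSMD8 was likewise called lower in SU-DHL-8 and not in Farage, at -0.13 in Farage (adjusted p = 0.12) and -0.35 in SU-DHL-8 (adjusted p = 6.7e-04). It was called lower in Farage without Farage control replicate 2 (-0.19, adjusted p = 0.018). PSMD4, a ubiquitin receptor, changed by -0.04 in Farage (adjusted p = 0.63) and by -0.15 in SU-DHL-8, where it passed narrowly (adjusted p = 0.049). That call was lost without any 1 of 8 libraries, namely all 6 of SU-DHL-8, Farage morusinol replicate 2 and Farage control replicate 3 (adjusted p 0.051 to 0.17). The 3 assembly chaperones of the cap, PSMD5, PSMD9 and PSMD10, were called in neither line, with changes of -0.02 to 0.04 in Farage and -0.12 to -0.04 in SU-DHL-8. PSMD9 was at a low level, 1.31 ± 0.122 FPKM in Farage morusinol and 1.28 ± 0.0612 FPKM in Farage control libraries. PSMD10 has a processed copy, PSMD10P1, at a mean of 6.04 FPKM over the 12 libraries.

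POMP, the maturation factor on which the beta ring is built and which is cleared once the core is complete, fell in both lines. It was at 79.5, 77.1 and 81.7 FPKM in Farage morusinol libraries against 127, 145 and 142 FPKM in controls, and at 127, 138 and 124 FPKM in SU-DHL-8 morusinol libraries against 195, 202 and 179.9 FPKM in controls. No library of a morusinol group reached the lowest control of its line in Farage or in SU-DHL-8. The log2 change was -0.79 ± 0.0627 in Farage (adjusted p = 3.4e-06) and -0.56 ± 0.0627 in SU-DHL-8 (adjusted p = 3.1e-05). The difference of -0.23 ± 0.0887 between the lines did not pass the test (adjusted p = 0.074), and it did without Farage control replicate 1 (-0.28, adjusted p = 0.024). PSMG1, PSMG2 and PSMG3 help to assemble the alpha ring. PSMG1 was called in neither line (0.00 in Farage, -0.05 in SU-DHL-8), while PSMG2 and PSMG3 fell in SU-DHL-8 (-0.20, adjusted p = 0.0083, and -0.60, adjusted p = 1.1e-04) with 0.05 and -0.14 in Farage, neither of which passed. The SU-DHL-8 call of PSMG2 was lost when libraries were scaled to protein-coding genes.

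Of the other activators and inhibitors, PSME3 (PA28 gamma, a nuclear activator) fell in both lines. It was at 26.8, 26.8 and 26.8 FPKM in Farage morusinol libraries against 40.1, 39.0 and 39.9 FPKM in controls, and at 34.1, 32.4 and 33.1 FPKM in SU-DHL-8 morusinol libraries against 53.4, 57.7 and 58.0 FPKM in controls (-0.55 and -0.75, adjusted p = 1.0e-06 and 6.8e-08). Its replicates lay close together in each group. PSME4 (PA200) and PSMF1 (PI31, first described as an inhibitor of the core) were called in neither line, at -0.07 and -0.12 in Farage and -0.09 and -0.04 in SU-DHL-8. PSMF1 was called lower in Farage without Farage morusinol replicate 1 (-0.15, adjusted p = 0.045), and PSME4 in SU-DHL-8 when rescaled to TPM (-0.20, adjusted p = 0.037) or by the median of ratios (-0.13, adjusted p = 0.028). In all, 6 of the 45 genes were called in neither line: PSMD5, PSMD9, PSMD10, PSMG1, PSME4 and PSMF1.

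The lines differed in the size of the fall for 19 genes. For 16 of 45 the Farage response lay above that of SU-DHL-8, which here means a smaller fall or none, and for 3 it lay below (limma, interaction term; 17.3% and 17.6% of all genes tested, 34.9% in either direction). Rescaled to TPM, these counts were 19 and 2 among the 45 genes, and over all genes 3373 higher and 2024 lower, against 3038 and 3088 as deposited. The 3 genes with the lower Farage response were PSMB8, PSMB10 and PSMA4. PSMA4 was at 21.7, 21.1 and 24.0 FPKM in Farage morusinol libraries against 30.5, 33.8 and 31.8 FPKM in controls, and at 33.8, 35.3 and 34.8 FPKM in SU-DHL-8 morusinol libraries against 40.3, 43.6 and 38.9 FPKM in controls (difference -0.27 ± 0.0823, adjusted p = 0.026). The SU-DHL-8 fall of PSMA4 was not called when libraries were scaled to protein-coding genes, nor was the difference when they were rescaled to TPM or by the median of ratios. PSMD11 had the largest difference the other way. It was at 19.9, 19.4 and 20.4 FPKM in Farage morusinol libraries against 22.7, 21.9 and 22.1 FPKM in controls, and at 15.6, 14.2 and 15.4 FPKM in SU-DHL-8 morusinol libraries against 24.5, 26.3 and 24.7 FPKM in controls (difference 0.55 ± 0.0611, adjusted p = 7.7e-05). PSMB2, PSMB5 and PSMB6 also fell less in Farage, by 0.43, 0.44 and 0.42 (adjusted p = 0.0028, 0.0066 and 0.014).

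Of the 19 calls on the difference, 13 were made under every setting tried, as were 26 of the 31 calls in Farage and 34 of the 38 in SU-DHL-8. Testing all genes without the filter on low values ended 6 of the 19: PSMA4, PSMA7, PSMB1, PSMC3, PSME2 and PSMG2 (adjusted p 0.051 to 0.07). Leaving out single libraries ended 5 of these 6, all but PSMG2. PSMA7 lost its call without any 1 of 10 libraries, all except Farage morusinol replicate 3 and Farage control replicate 3 (adjusted p 0.055 to 0.071). PSMA4 lost it without any 1 of SU-DHL-8 morusinol replicates 2 and 3, SU-DHL-8 control replicates 1 and 3, Farage morusinol replicates 1 and 2 and Farage control replicate 2 (0.053 to 0.062). PSME2 lost it without any 1 of SU-DHL-8 morusinol replicates 2 and 3, SU-DHL-8 control replicates 1 and 2, Farage morusinol replicates 1 and 2 and Farage control replicate 2 (0.051 to 0.073). PSMC3 lost it without any 1 of 6 libraries, which were replicate 3 of SU-DHL-8 morusinol, replicate 1 of SU-DHL-8 control and replicates 1 and 2 of both Farage groups (0.051 to 0.06). PSMB1 lost it without any 1 of SU-DHL-8 morusinol replicates 2 and 3, Farage morusinol replicate 2 and Farage control replicate 2 (0.05 to 0.055). Across the 45 genes, the changes in the 2 lines correlated at 0.58 (Pearson's r, a description across genes that share libraries).

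**Figure D4:**
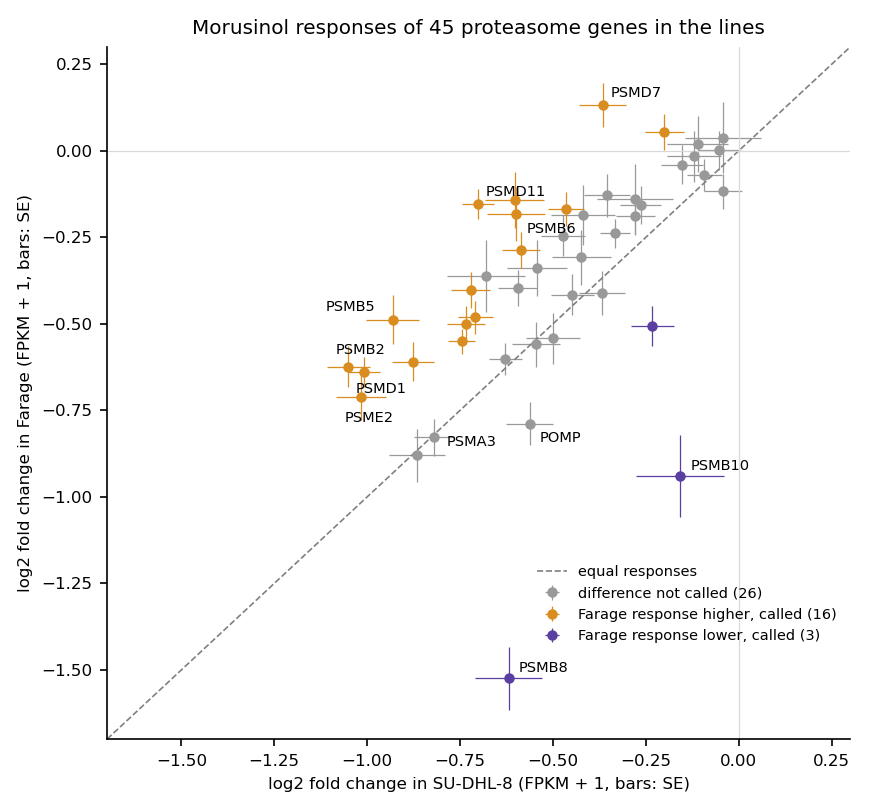
Morusinol response of 45 proteasome genes in Farage (y axis) against SU-DHL-8 (x axis), both as log2 fold change of FPKM + 1 with standard errors as bars; the dashed line marks equal responses and colours mark the test of the difference. For 16 genes in orange the Farage response is higher (a smaller fall, or none), for 3 in purple it is lower, and PSMB8 and PSMB10 lie well below the line.

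Without morusinol, Farage had less of most proteasome genes than SU-DHL-8. In the Farage controls 29 of the 45 genes were lower and 4 were higher than in the SU-DHL-8 controls, against 29.6% and 34.5% of all genes tested (64.1% in either direction). The control groups did not overlap for 30 genes that were lower in Farage and 6 that were higher, as for 32.1% and 37.4% of all genes tested. The median difference was -0.26 for the 45 genes and 0.08 over all genes tested. These controls also enter the responses above, so a response and a control difference are not independent of each other. Rescaled to TPM, the median over all genes was 0.19 and that of the 45 genes -0.18, with 22 lower and 7 higher. Scaled to the sum of protein-coding genes, 27 were lower and 8 higher. The lowest was PSMG3, at 15.5, 13.3 and 14.9 FPKM in Farage controls against 39.0, 36.2 and 37.2 FPKM in SU-DHL-8 controls (-1.30 ± 0.0804, adjusted p = 1.2e-07). PSMF1 was at 9.35, 8.74 and 8.59 FPKM in Farage controls against 21.1, 23.2 and 22.3 FPKM in SU-DHL-8 controls (-1.23, adjusted p = 4.6e-09). PSMD4 was at 44.3, 39.1 and 43.5 FPKM against 92.8, 89.9 and 91.0 FPKM (-1.09, adjusted p = 3.0e-08), again with Farage controls first. All 3 showed groups far apart. Core subunit genes were lower too, among them PSMA7 at 145, 140.5 and 152 FPKM in Farage controls against 294, 294 and 295 FPKM in SU-DHL-8 controls (-1.01, adjusted p = 2.6e-08), and PSMB1 at 69.2, 68.4 and 71.6 FPKM against 137, 139.7 and 139 FPKM (-0.98, adjusted p = 1.5e-08). PSMB3, which had the highest mean of the core genes in Farage controls, did not pass the test (0.08, adjusted p = 0.37).

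Of the 5 immunoproteasome and PA28 genes, 3 were lower in Farage controls and none was called higher. PSMB9 (-0.77), PSME1 (-0.95) and PSME2 (-0.29) were lower in Farage controls than in SU-DHL-8 controls. PSMB8 (-0.18 ± 0.0909, adjusted p = 0.11) and PSMB10 (-0.27 ± 0.118, adjusted p = 0.066) did not pass the test. PSMB10 did without Farage control replicate 1 (-0.41, adjusted p = 0.0038), and PSMB8 did without Farage morusinol replicate 2, with the same difference (adjusted p = 0.04). The genes higher in Farage controls were PSMD5, at 17.6, 17.7 and 16.4 FPKM against 12.7, 13.6 and 12.0 FPKM in SU-DHL-8 controls (0.41 ± 0.0736, adjusted p = 5.9e-04), PSMD6 (0.39), PSMA3 (0.31) and PSMD1 (0.14). The call of PSMD1 was lost without SU-DHL-8 control replicate 3 (0.10, adjusted p = 0.053). With morusinol, the lines met at similar levels for PSMB5 (31.3 ± 2.65 FPKM in Farage and 31.3 ± 0.787 FPKM in SU-DHL-8, SD, n = 3 each) and PSME2 (23.4 ± 1.88 and 23.1 ± 1.43 FPKM), though this contrast was not tested.

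A further 51 genes that are not members were read in 6 lists, and 49 of them were tested. The lists cover the ubiquitin and proteasome system, NFE2L1 and genes tied to it, and interferon and MHC class I genes. In Farage 19 were higher and 16 lower, and in SU-DHL-8 13 were higher and 21 lower. Among all genes tested, 21.9% were called higher and 21.2% lower in Farage, and 25.1% and 21.6% in SU-DHL-8. Pooled over the lists, they thus did not share the one-way pattern of the 45 genes. In SU-DHL-8, though, each list of the ubiquitin and proteasome system had more lower than higher calls. In Farage this held for some of these lists only. NFE2L1 (NRF1) is the transcription factor that raises proteasome genes when the proteasome is impaired. It was at 75.9, 74.1 and 69.9 FPKM in Farage morusinol libraries, against 18.9, 17.2 and 17.7 FPKM in controls. In SU-DHL-8 it was at 61.8, 61.8 and 60.8 FPKM with morusinol, against 18.1, 17.0 and 19.9 FPKM in controls. Its transcript was thus at 408% of the control mean in Farage and 335% in SU-DHL-8, while no proteasome gene was called higher (log2 change 1.97 ± 0.0569, adjusted p = 3.7e-09, and 1.70 ± 0.0569, adjusted p = 5.5e-09). NFE2L1 is made in the membrane of the endoplasmic reticulum, turned over with the help of the ubiquitin ligase SYVN1 and processed by NGLY1 and DDI2, so the transcript level does not give the active protein, which was not measured.

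Of the 8 genes of this list, NFE2L1 itself among them, 5 rose and 1 fell in Farage, and 5 rose and 2 fell in SU-DHL-8. Among all genes tested, calls higher and lower were made for 21.9% and 21.2% in Farage and for 25.1% and 21.6% in SU-DHL-8. NFE2L2 (NRF2), the regulator of the response to oxidants, was at 38.2, 39.1 and 38.0 FPKM in Farage morusinol libraries against 21.2, 22.1 and 21.2 FPKM in controls, and at 20.9, 20.2 and 20.1 FPKM in SU-DHL-8 morusinol libraries against 16.3, 18.0 and 17.1 FPKM in controls. It rose by 0.81 in Farage and 0.24 in SU-DHL-8 (adjusted p = 9.5e-08 and 4.2e-04). Its small MAF partner MAFG was at 19.9, 19.4 and 18.6 FPKM in Farage morusinol libraries against 7.44, 7.61 and 7.66 FPKM in controls (1.24, adjusted p = 1.6e-08). In SU-DHL-8 MAFG was at 11.1, 11.05 and 11.8 FPKM with morusinol against 9.72, 9.81 and 10.8 FPKM in controls (0.15, adjusted p = 0.021), a call lost without SU-DHL-8 morusinol replicate 3 or SU-DHL-8 control replicate 1 or 2 (adjusted p 0.072 to 0.082). MAFK fell in SU-DHL-8 (-0.84, adjusted p = 2.6e-05) and was at -0.03 in Farage. SYVN1 rose in both (0.38 and 0.95) and NGLY1 fell in both (-0.50 and -0.16).

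**Figure D5:**
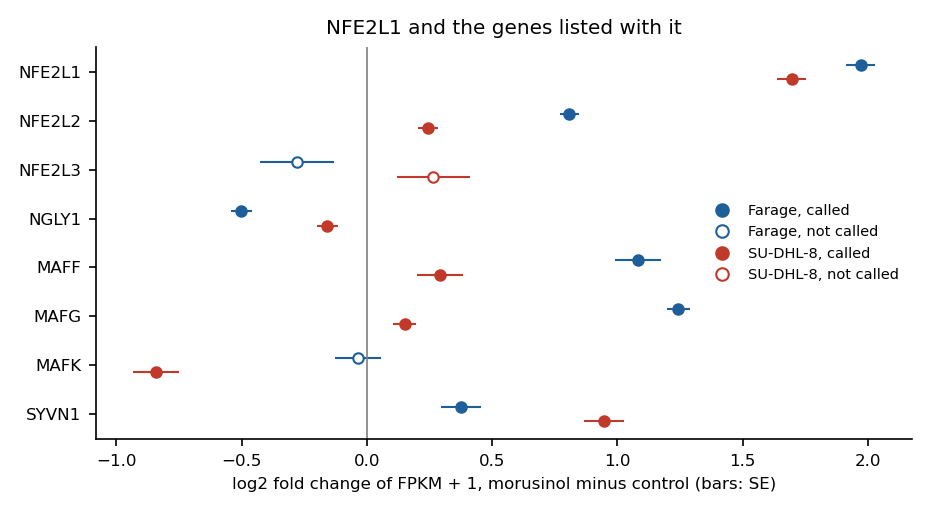
Change with morusinol of NFE2L1 and the 7 other genes of its list, as log2 fold change of FPKM + 1 (morusinol minus control) with standard errors as bars; Farage is blue, SU-DHL-8 red, and filled points passed an adjusted p of 0.05. NFE2L1 lies farthest right in both lines, at 1.97 in Farage and 1.70 in SU-DHL-8.

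The list of proteasome-bound enzymes and scaffolds changed in both directions in Farage and not in SU-DHL-8. Of its 6 genes, 2 rose and 2 fell in Farage, and 0 rose and 4 fell in SU-DHL-8. Shares of all genes called higher and lower were 21.9% and 21.2% in Farage, and 25.1% and 21.6% in SU-DHL-8. USP14, a deubiquitinase of the 19S cap, was at 35.9, 37.8 and 41.6 FPKM in Farage morusinol libraries against 27.0, 28.3 and 28.1 FPKM in controls, and at 21.3, 23.1 and 21.4 FPKM in SU-DHL-8 morusinol libraries against 28.0, 29.1 and 28.7 FPKM in controls. It rose in Farage (0.45, adjusted p = 5.5e-05) and fell in SU-DHL-8 (-0.37, adjusted p = 1.8e-04). ECPAS, a scaffold that holds core and cap together, was at 49.3, 52.0 and 51.0 FPKM in Farage morusinol libraries against 32.1, 31.2 and 29.9 FPKM in controls (0.69, adjusted p = 3.0e-06). In SU-DHL-8 it was at 19.4, 16.8 and 19.4 FPKM with morusinol against 20.7, 20.1 and 20.8 FPKM in controls (-0.14), a call at the threshold (adjusted p = 0.05 after rounding) that was lost without any 1 of 10 libraries, all but SU-DHL-8 morusinol replicates 1 and 3 (0.055 to 0.16). UBE3C, a ubiquitin ligase of the proteasome, and UCHL5, the second deubiquitinase of the cap, fell in both lines (-0.52 and -0.35 in Farage, -0.50 and -0.36 in SU-DHL-8). AKIRIN2, which brings proteasomes into the nucleus, was at 50.1, 53.4 and 55.8 FPKM in Farage morusinol libraries against 42.4, 42.9 and 38.9 FPKM in controls, and at 65.2, 62.1 and 64.6 FPKM in SU-DHL-8 morusinol libraries against 34.9, 35.7 and 35.3 FPKM in controls. AKIRIN2 is of a separate list, and it rose in both lines (0.35 and 0.84, adjusted p = 1.6e-04 and 1.9e-07). SEM1, the small cap subunit not among the 46, fell in both (-0.43 and -0.42), and PSMG4, the partner of PSMG3, fell in Farage (-0.43) with -0.10 in SU-DHL-8. PSMA8 and PSMB11, the subunits of testis and thymus, were at most 0.17 and 0.0716 FPKM and were not tested.

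Upstream of the proteasome, UBA1, the main ubiquitin-activating enzyme, fell in both lines (-0.55 in Farage and -0.66 in SU-DHL-8, adjusted p = 8.7e-05 and 1.8e-05). Of 5 genes of ubiquitin precursors and activating enzymes, 0 rose and 3 fell in Farage, and 1 rose and 3 fell in SU-DHL-8. Among 12 ubiquitin shuttle and p97 segregase genes, 6 rose and 4 fell in Farage, and 1 rose and 8 fell in SU-DHL-8. Over all genes tested, 21.9% were called higher and 21.2% lower in Farage, and 25.1% and 21.6% in SU-DHL-8. VCP, which encodes p97, changed by -0.18 in Farage (adjusted p = 0.021) and by -0.59 in SU-DHL-8 (adjusted p = 5.7e-06). Its Farage call was lost without Farage morusinol replicate 3 or Farage control replicate 1 or 3 (adjusted p 0.07 to 0.074).

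Within each line, the interferon and MHC class I genes did not move with the immunoproteasome as a group. Of 12, 5 rose and 4 fell in Farage, and 5 rose and 2 fell in SU-DHL-8. The shares of all genes called higher and lower were 21.9% and 21.2% in Farage, and 25.1% and 21.6% in SU-DHL-8. For the difference between responses, 2 of the 12 were higher and 5 lower (median -0.24), against 17.3% and 17.6% of all genes tested. PSMB8 and PSMB10 were lower for this difference too, and a link was not tested. IRF1, which drives immunoproteasome genes after interferon, rose in Farage (0.28, adjusted p = 0.0017) and did not pass the test in SU-DHL-8 (0.09, adjusted p = 0.24). JAK1, a kinase of the interferon receptors, rose in both (0.73 and 0.94, adjusted p = 6.2e-08 and 7.9e-09). JAK2, of the interferon gamma receptor pathway, was called lower in Farage and higher in SU-DHL-8 (difference between responses -0.75). IFNGR2, of the same pathway, was called higher in Farage and lower in SU-DHL-8 (difference 0.93). The SU-DHL-8 call of IFNGR2 was lost without any 1 of 3 libraries. TAP2, the partner of TAP1, fell in Farage (-0.62, adjusted p = 4.2e-05) and did not pass in SU-DHL-8 (-0.15, adjusted p = 0.11). ERAP1, which trims peptides for MHC class I, rose in both (0.23 and 0.79). ERAP2 and TAPBP, of the same list, were called lower in Farage. The ERAP2 call was lost without any 1 of 2 libraries and the TAPBP call without any 1 of 7. TAPBP was called higher in SU-DHL-8 without SU-DHL-8 control replicate 3 (0.21, adjusted p = 0.042). NLRC5, also listed, was called lower in SU-DHL-8, a call lost without any 1 of 9 libraries. B2M, the light chain of MHC class I, passed in neither (-0.13 in Farage and 0.08 in SU-DHL-8), though it was called lower in Farage without Farage control replicate 1 (-0.18, adjusted p = 0.041).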

How the data were processed

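RNA was measured by sequencing in 12 libraries, 3 for each of Farage morusinol, Farage control, SU-DHL-8 morusinol and SU-DHL-8 control, grouped by their labels. The authors deposited 1 table of FPKM (fragments per kilobase, scaled to the library) with a column per library. Columns marked n were read as control, the only group without a column of its own name. The input was total RNA and the kit SMARTer mRNA-seq, per the labels' protocols. No source used here gives aligner, counter, annotation or strand. The submitters' processing notes list the mouse builds GRCm38 and mm10, yet all 61466 identifiers are human, and 94.8% match GENCODE release 29 (GRCh38), which gave positions. No counts were used: 50.9% to 52.9% of values under 50 fragments fell on whole fragments (tolerance 0.02), too few to recover reads, and the same steps gave the depth.

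Genes at 1 FPKM or more in at least 3 libraries (17574) were tested with limma 3.58.1 (R 4.3.3) on log2(FPKM + 1), with 1 mean per group over all 12 libraries, a trended and robust empirical Bayes prior, two-sided p and Benjamini-Hochberg adjustment over all tested genes, called under 0.05. The 4 contrasts were the response to morusinol (morusinol minus control) in Farage and in SU-DHL-8, the difference of these responses (Farage minus SU-DHL-8), and the difference between the controls (Farage minus SU-DHL-8). The fit was tested on simulated data. Tables and figures were made with Python 3.11.15. Errors are SD for FPKM (n = 3 a group) and SE for log2 changes. The members and all lists were chosen with earlier results of these data known. Every member and listed gene could be named, and values per library were due for the catalytic pairs, PSME1, PSME2, POMP and, in each contrast, the largest rise and the 5 largest falls among called members; others were chosen after their values were seen. Promoters are from RefSeq. Of the listed genes that are no members, 2 are not reported here and not counted. Same-numbered libraries did not deviate together (correlations -0.0788 to 0.0544), so no block was used. No pair of libraries was identical. Alternatives were pseudocount, filter, scaling, libraries in the fit, replicate block, prior and leaving out each library; scaling to protein-coding genes was added after seeing the data.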

Additional observations from a re-analysis of the deposited data

Results flagged for a closer look

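The response to morusinol differed between the lines, by limma's test of the difference itself (Farage minus SU-DHL-8, on the log2 scale of FPKM + 1, adjusted p under 0.05 over all genes tested), for the genes given here. Among the core genes the difference was -0.27 for PSMA4, 0.23 for PSMA7, 0.23 for PSMB1, 0.43 for PSMB2, 0.44 for PSMB5 and 0.42 for PSMB6. In the immunoproteasome and PA28 it was -0.91 for PSMB8, -0.78 for PSMB10 and 0.31 for PSME2. In the 19S cap it was 0.27 for PSMC3, 0.37 for PSMD1, 0.32 for PSMD2, 0.30 for PSMD3, 0.50 for PSMD7, 0.55 for PSMD11 and 0.30 for PSMD14. Of the assembly factors and activators, it was 0.25 for PSMG2, 0.46 for PSMG3 and 0.20 for PSME3. Without the filter on low values, PSMG2 (adjusted p = 0.052), PSMA4, PSMA7, PSMB1, PSMC3 and PSME2 were not called. All of these but PSMG2 also lost the call when single libraries were left out.

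Of the 49 tested genes outside the 46, 15 were called higher and 9 lower for the difference, against 17.3% and 17.6% of all genes tested. Given here are only those with calls in opposite directions in the 2 lines. The difference was 0.82 for USP14 and 0.84 for ECPAS, 0.33 for NPLOC4 and 0.29 for FAF1 (partners of p97), and -0.49 for RPS27A, which encodes ubiquitin fused to a ribosomal protein. It was -0.75 for JAK2 and 0.93 for IFNGR2, both of the interferon gamma receptor pathway. A positive value means that the Farage response was the higher one. Leaving out single libraries ended some of the opposite calls. In Farage, the call of NPLOC4 was lost without any 1 of 9 libraries and that of FAF1 without any 1 of 4. In SU-DHL-8, the call of ECPAS was lost without any 1 of 10 libraries and that of NPLOC4 without any 1 of 2. Those of FAF1 and IFNGR2 in SU-DHL-8 were each lost without any 1 of 3.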

How the results depend on the processing

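The number of proteasome genes called lower stayed within 1.5 times under every alternative tried. For the genes called higher, some counts moved and the cause was not tested. In Farage it was 1 gene against 0 when scaled to protein-coding genes, and also without Farage control replicate 3. In the control comparison it was 7 (TPM) and 8 (protein-coding scaling) against 4. Leaving out each library in turn gave 27 to 31 lower and 0 to 1 higher in Farage, 36 to 37 lower and 0 to 0 higher in SU-DHL-8, 2 to 4 lower and 12 to 19 higher for the difference between responses, and 27 to 30 lower and 3 to 5 higher for the controls. No value changed sign past the threshold. With the replicate number as a block, 32 genes fell in Farage and 38 in SU-DHL-8, 3 and 15 differed between responses, and 29 and 4 between controls. The block added PSMB6 in Farage (-0.18, adjusted p = 0.035) and ended the call of PSMA7 between responses (adjusted p = 0.056), but same-numbered libraries share only a number. No symbol had more than 1 row, so summing rows gave no value. Depth of 6.05 to 18.96 M fragments, estimated and not given, limits genes near the filter such as PSMA6 and PSMD9.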
